A study of Mus musculus with 12 samples.

Results

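The expression of 89 nuclear genes of the mitochondrial respiratory chain and ATP synthase was measured in angiogenic and non angiogenic tumor islets of RIP1-Tag2 mice. They were all genes on the array whose symbol starts with Nduf, Uqcr, Cox4 to Cox8 or Atp5, or is Sdha, Sdhb, Sdhc or Sdhd, and they made up 89 of the 19938 genes tested. The set held 34 complex I genes, 7 complex I assembly factors (Ndufaf), Ndufa4 and its paralog Ndufa4l2, 4 complex II genes, 8 complex III genes, 17 complex IV genes and 17 ATP synthase (complex V) genes. The 13 subunits that mitochondrial DNA encodes were not analysed here.

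All islets came from 8-week-old Rip1Tag2 mice on a C57BL/6 background, in which the rat insulin promoter drives the SV40 T antigen in beta cells, so that both groups carried the oncogene and neither was normal tissue. Islets were freed with collagenase, purified on a density gradient and sorted by appearance, and RNA of islet pools was hybridized to 12 Affymetrix arrays, 6 of angiogenic and 6 of non angiogenic pools. Neither the number of mice behind a pool nor whether 2 pools shared mice is given in the labels, so the tests cover pool-to-pool spread, which may be partly technical. The comparison asked which transcripts differ once an islet has undergone the angiogenic switch, the early step at which a hyperplastic islet recruits vessels.

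The respiratory chain sits in the inner mitochondrial membrane. Complexes I and II pass electrons from NADH and succinate to coenzyme Q, complex III passes them on to cytochrome c, and complex IV hands them to oxygen, while the protons pumped on the way drive ATP synthase. In beta cells the ATP made this way closes potassium channels, which couples glucose oxidation to insulin release.

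Many promoters of these genes are known to carry sites for nuclear respiratory factor 1 (NRF-1) and for the ETS factor GABP, also called NRF-2, and the stretches below are shown as examples that hold letters of more than 1 such motif. RefSeq windows on GRCm38.p6, running 250 bases before to 50 bases after a start, were at hand for 73 of the 89 genes (78 windows). They were searched on both strands for GCGCA and GCGC with any 1 base between them (NRF-1), CCGGAAG (ETS), AAGATGGCG (YY1) and TCAAGGTCA (estrogen-related receptors). NRF-1 letters stood in 24.4% of these windows, against 4.60% of all 32851 windows and 6.94% of the windows of genes on the array. ETS letters stood in 23.1%, against 8.86% and 12.1%. YY1 letters stood in 8.97%, against 1.40% and 1.94%, and the receptor letters in 2.56%, against 0.423% and 0.298%. Any of the motifs was found in 37 of the 73 genes, and none in the other 36. A match describes letters and shows no binding. The 4 stretches are written 5′ to 3′ on the gene's strand, with the matched letters in capitals and in either orientation. They belong to Sdhd (chr9:50603877-50603940, minus strand), Cox6a1 (chr5:115348959-115349132, minus strand), Atp5h (chr11:115419939-115420072, minus strand) and Atp5j (chr16:84835019-84835076, minus strand).
Sdhd: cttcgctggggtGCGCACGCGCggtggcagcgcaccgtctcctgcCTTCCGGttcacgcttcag
Cox6a1: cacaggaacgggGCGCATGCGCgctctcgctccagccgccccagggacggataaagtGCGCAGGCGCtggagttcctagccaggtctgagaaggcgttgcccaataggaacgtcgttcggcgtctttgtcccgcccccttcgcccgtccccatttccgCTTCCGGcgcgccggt
Atp5h: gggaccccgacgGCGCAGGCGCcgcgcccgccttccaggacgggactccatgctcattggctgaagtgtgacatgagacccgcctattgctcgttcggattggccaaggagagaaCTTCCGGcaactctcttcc
Atp5j: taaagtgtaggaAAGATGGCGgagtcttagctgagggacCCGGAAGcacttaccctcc
Sdhd, Cox6a1 and Atp5h carry NRF-1 and ETS letters, and Atp5j carries YY1 and ETS letters. The 18 genes with NRF-1 letters had a median log2 difference between angiogenic and non angiogenic islets of 0.04, and the genes with a window but without those letters had 0.02. For ETS letters the medians were 0.00 and 0.03.

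Values are log2 levels after RMA, a method that places all arrays on 1 distribution, so a change shared by most transcripts would not be seen. Array medians lay between 7.30 and 7.38. The arrays fell into a pair of sets, replicates 4 to 6 and replicates 1 to 3 of each group, whose origin the labels do not give. The figure legends of the study speak of more than 1 profiling experiment, and group effects are therefore also given within each set. Defining markers of the beta cell were high in both groups: the mean of 11 markers was 12.05 ± 0.06 in angiogenic and 12.13 ± 0.10 in non angiogenic islets (SD, n = 6 each). Endothelial markers were higher in angiogenic islets, where 11 of 12 passed the test and their mean lay between 9.57 and 9.73, against 9.01 to 9.24 in non angiogenic islets. Pericyte and smooth muscle markers (11 of 12), fibroblast markers (9 of 10) and macrophage markers (6 of 10) were also higher. The part of these cell types in the values below was not tested, and in such bulk RNA fewer cells of a type and less RNA per cell cannot be told apart.

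None of the 89 genes passed the test between angiogenic and non angiogenic islets. With limma and Benjamini-Hochberg adjustment over all 19938 genes at 0.05, 0 rose and 0 fell, where 3.55% of all genes rose and 0.948% fell (4.50% in either direction). At an unadjusted p under 0.05 limma named 5 of the 89 (5.62%), against 14.3% of all genes. The methods' t-test named 1 higher and 2 lower before adjustment, against 1529 and 1385 over all genes, and 0 after it. In 0 of the 89 did the 6 angiogenic arrays stand wholly above or below the 6 non angiogenic arrays, a separation seen in 3.78% of all genes.

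The differences were small as well as uncalled, but no smaller than over all genes: their median size was 0.07, against 0.06. Of the 89 genes, 49 had a positive and 40 a negative log2 difference, with a median of 0.02 against -0.02 over all genes. They ran between -0.35 for Cox7a2l and 0.24 for Ndufa4. The 95% interval stayed within 1.5-fold in both directions for 85 genes (95.5%, against 96.6% of all genes). For Ndufb6, Ndufaf1, Ndufa4 and Atp5md the interval reached beyond 1.5-fold in at least 1 direction.

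**Figure D1:**
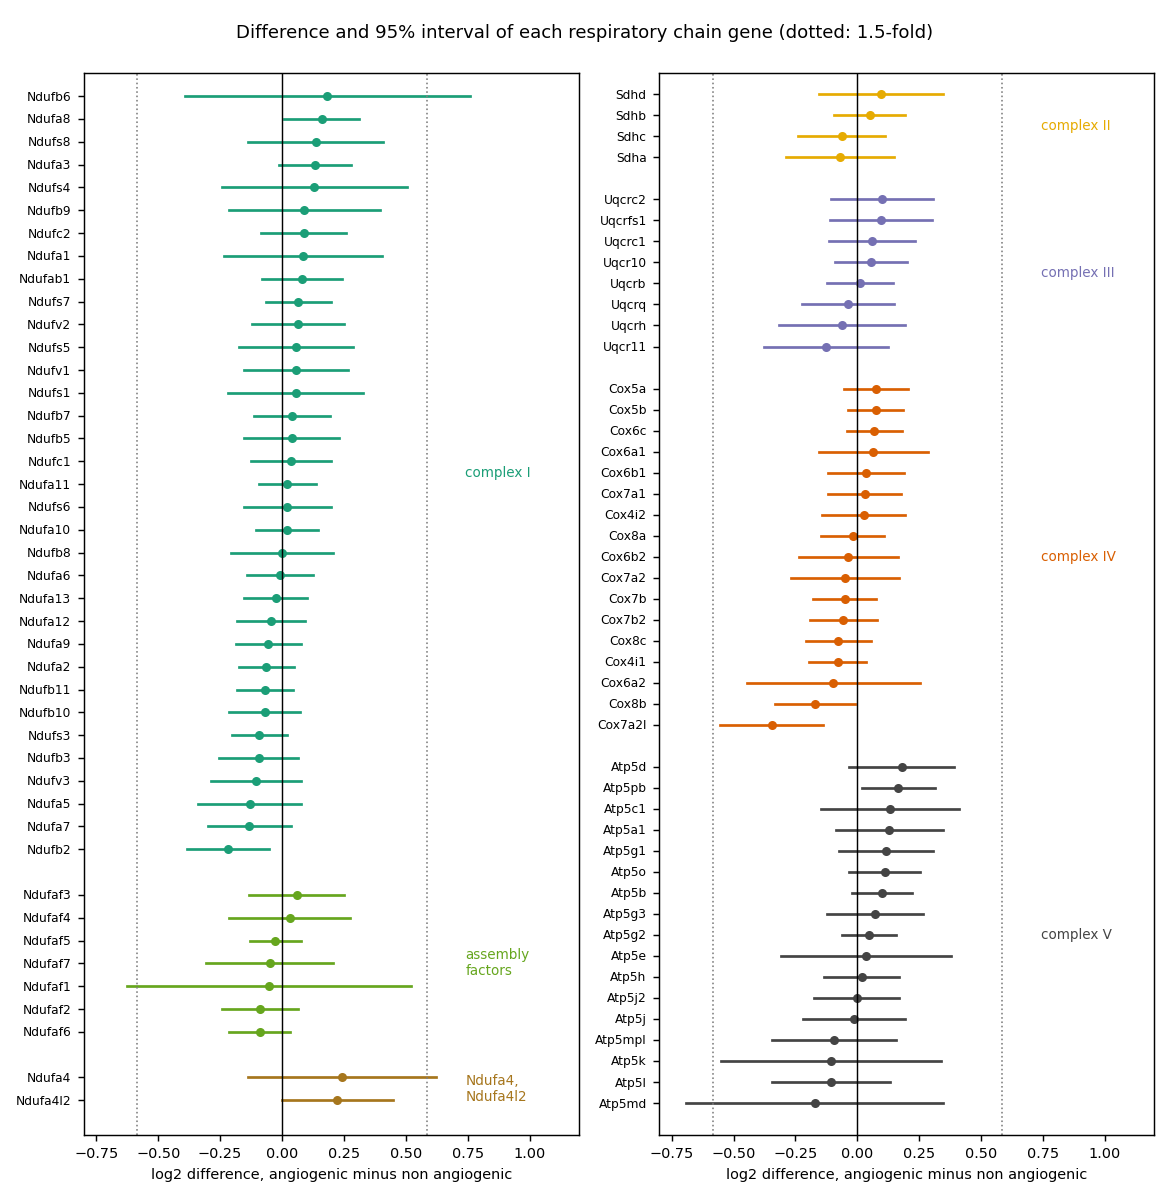
Log2 difference between angiogenic and non angiogenic islets (horizontal axis, limma estimate with its 95% interval, n = 6 arrays in each group) for each of the 89 genes, listed by complex and ordered by size. Cox7a2l lies farthest below 0 at -0.35, and 85 of the 89 intervals stay between the dotted lines at 1.5-fold.

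By complex, the median log2 differences were 0.03 for complex I, -0.05 for its assembly factors, -0.01 for complex II, 0.03 for complex III, -0.04 for complex IV and 0.05 for complex V. The mean level of the 34 complex I genes was 9.70 ± 0.12 in angiogenic and 9.69 ± 0.10 in non angiogenic islets (SD, n = 6 each). That of the 17 complex V genes was 10.90 ± 0.11 in angiogenic and 10.86 ± 0.06 in non angiogenic islets, and that of the 17 complex IV genes was 9.15 ± 0.06 and 9.18 ± 0.05. In each complex the arrays of both groups overlapped. Beta cell markers, which come from the cells that fill the islet, differed by -0.08 in their mean level, with 1 of 11 lower.

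**Figure D2:**
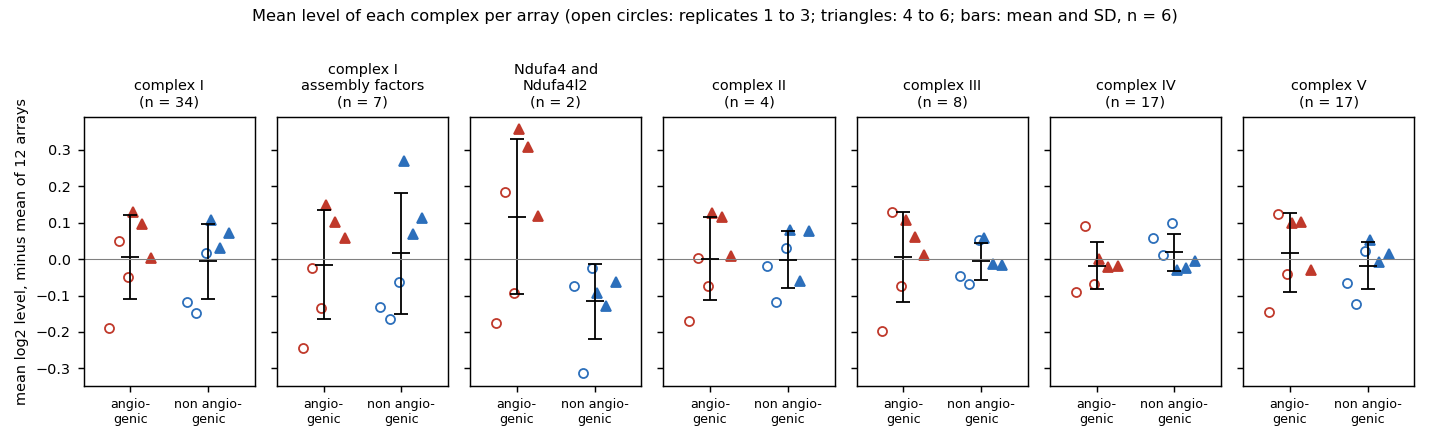
Mean log2 level of the genes of each complex in every array, minus the mean of the 12 arrays (vertical axis), for angiogenic (red) and non angiogenic (blue) islets. Points of both colours overlap in every panel, and for complex I and its assembly factors the arrays of replicates 4 to 6 (triangles) lie mostly above those of replicates 1 to 3 (open circles).

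Complex I, the entry point for electrons of NADH, had 20 positive and 14 negative differences among its 34 genes. Ndufb2, an accessory subunit of the membrane arm, stood lowest. Its levels ran between 7.39 and 7.84 (median 7.68) in angiogenic islets and between 7.78 and 7.95 (median 7.85) in non angiogenic islets. The 2 lowest angiogenic arrays fell clear of the rest, while the highest angiogenic arrays reached into the non angiogenic range. The log2 difference was -0.22 (SE 0.08, limma adjusted p = 0.169), with -0.17 in replicates 4 to 6 and -0.26 in replicates 1 to 3.

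Ndufa8, an accessory subunit imported through the intermembrane space, leaned the other way. It lay between 9.68 and 9.87 (median 9.76) in angiogenic islets and between 9.41 and 9.80 (median 9.60) in non angiogenic islets. The groups overlapped in the upper part of the non angiogenic range, and the difference of 0.16 (SE 0.07) had an adjusted p of 0.303 in limma. Ndufb6, another accessory subunit, had the largest estimate of complex I at 0.18, with an SE of 0.27 and levels spread between 10.46 and 11.65 in angiogenic and between 10.12 and 11.59 in non angiogenic islets. Ndufs8, a core subunit that holds iron-sulfur clusters, differed by 0.14 (SE 0.13). The accessory subunits Ndufa7 and Ndufa5 each differed by -0.13. None of these 4 passed the test.

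Of the core subunits that carry out the chemistry, none passed the test in limma. Beside Ndufs8, Ndufv1, which binds NADH and the flavin, differed by 0.06 (95% interval -0.15 to 0.27), Ndufv2 by 0.07, Ndufs1, the largest iron-sulfur subunit, by 0.05 (-0.22 to 0.33), and Ndufs7, which lies next to the quinone site, by 0.07. Ndufs3, a core subunit of the arm facing the matrix, differed by -0.09 (-0.20 to 0.02). This grouping by role was made after the values had been seen.

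The assembly factors build complex I and leave it before it is mature. Of the 7, Ndufaf3 had the largest positive difference at 0.06, and Ndufaf2 and Ndufaf6 the largest negative ones at -0.09 each. Ndufaf4, which acts with Ndufaf3 on the arm facing the matrix, differed by 0.03. Ndufaf1, which acts on the membrane arm, lay between 7.78 and 8.85 in angiogenic and between 7.54 and 9.08 in non angiogenic islets. Its difference was -0.05 with an SE of 0.27.

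Ndufa4, now known as a subunit associated with complex IV, and Ndufa4l2, a paralog induced by hypoxia-inducible factor, had the 2 highest estimates of the whole set. Ndufa4 lay between 8.93 and 9.72 (median 9.34) in angiogenic islets and between 8.46 and 9.49 (median 9.18) in non angiogenic islets, with wide overlap. The difference was 0.24 (SE 0.18, limma adjusted p = 0.630). Ndufa4l2 lay between 7.13 and 7.56 (median 7.29) in angiogenic islets and between 6.73 and 7.33 (median 7.11) in non angiogenic islets.

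The Ndufa4l2 difference was 0.22 (SE 0.10, adjusted p = 0.350), and it was uneven across the sets. Replicates 4 to 6 gave 0.41 (limma adjusted p = 0.0298 within that set) and replicates 1 to 3 gave 0.03. Ndufa4l2 was the only gene of the 89 called within replicates 4 to 6. Over all genes a larger share than 1 in 89 was called higher within that set, and further genes were called lower. The single call is thus no excess over the background. In replicates 4 to 6 the 3 angiogenic arrays all stood above the 3 non angiogenic arrays. With 3 arrays in each group chance can readily give such a separation, and its share over all genes was not counted. In limma the test of the difference between the sets gave an adjusted p of 0.736. With the mean of the acinar markers as a covariate the difference had an adjusted p of 0.0426 in limma, and Ndufa4l2 was then the 1 gene of the 89 called higher and Cox7a2l the 1 called lower, where 3.76% of all genes rose and 1.11% fell.

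Complex II, or succinate dehydrogenase, also serves the citric acid cycle. Its flavoprotein Sdha differed by -0.07 (SE 0.10) and its iron-sulfur subunit Sdhb by 0.05 (SE 0.07). The membrane anchors differed by -0.06 for Sdhc and 0.10 for Sdhd. All 4 intervals lay within 1.5-fold.

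Complex III genes were as close between the groups. The core protein genes Uqcrc2 and Uqcrc1 differed by 0.10 and 0.06, and Uqcrfs1, the Rieske iron-sulfur protein, by 0.10 (SE 0.10). Of the small subunits, Uqcrh, the hinge protein near cytochrome c1, differed by -0.06, Uqcrq by -0.04 and Uqcr11 by -0.13 (SE 0.12). All 8 intervals lay within 1.5-fold.

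Cox7a2l, a factor known for joining complexes III and IV in supercomplexes, of which C57BL/6 mice carry a short form reported as defective in that role, lay nearest to the threshold of the 89 genes. It measured 8.77, 9.27, 9.02, 9.10, 9.11 and 8.88 in angiogenic islets of replicates 1 to 6, against 9.36, 9.68, 9.48, 9.22, 9.13 and 9.36 in non angiogenic islets. The highest angiogenic array stood above the 2 lowest non angiogenic arrays, and the other 5 lay below all non angiogenic arrays. The log2 difference was -0.35 (SE 0.10, 95% interval -0.55 to -0.14), with a limma adjusted p of 0.0603.

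The Cox7a2l call turned on the model. Replicates 4 to 6 gave -0.20 and replicates 1 to 3 gave -0.49. With the set as a block the adjusted p was 0.0222, and Cox7a2l was then the only gene of the 89 to pass, where 2.74% of all genes fell and 5.88% rose. It also passed without angiogenic replicate 2 (adjusted p = 0.0347) and without non angiogenic replicate 5 (adjusted p = 0.0357). A separate transcript cluster of the same gene gave -0.31, with an adjusted p of 0.312 over all clusters, or 0.208 with the set as a block. The array annotation lists the same transcripts for both clusters and does not settle which copy each measures. Among genes of the 89 with a single cluster, cluster numbers run in chromosome order. In that order the brighter Cox7a2l cluster falls among genes of chromosome 12. The separate one falls between genes of chromosomes 17 and 18, and Cox7a2l lies on chromosome 17. The calls above rest on the brighter cluster.

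**Figure D3:**
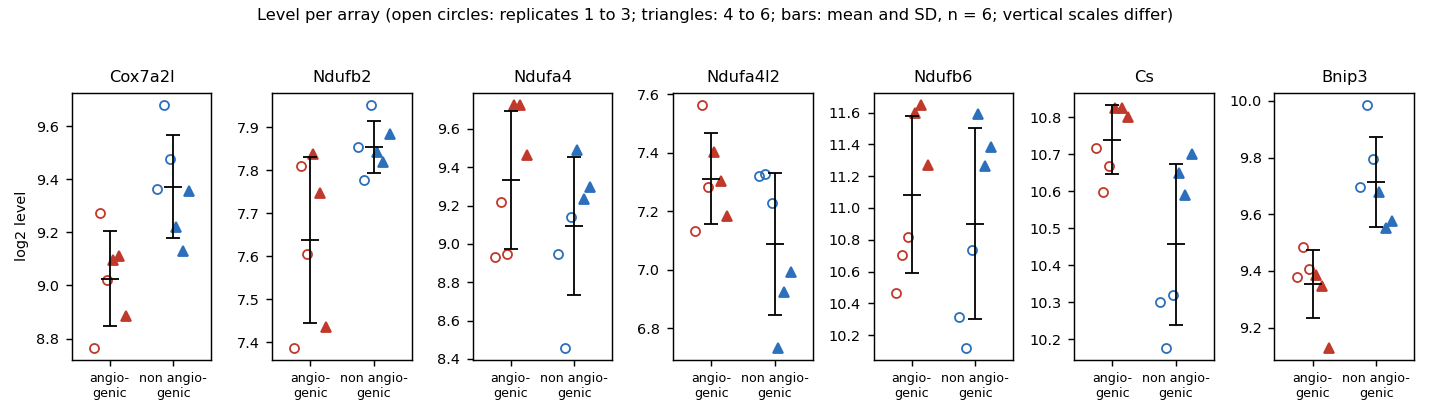
Log2 level in every array (vertical axis, scale set per gene) of Cox7a2l, Ndufb2, Ndufa4, Ndufa4l2 and Ndufb6, and of Cs and Bnip3 from the other mitochondrial lists, in angiogenic (red) and non angiogenic (blue) islets. Bnip3 is the gene whose groups do not overlap, and the Ndufb6 points split by set in both groups.

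The other complex IV genes differed by less. Cox5a and Cox5b, structural subunits, and Cox6c differed by 0.08, 0.07 and 0.07. Cox8b, the heart and muscle isoform of the smallest subunit, lay between 6.06 and 6.36 (median 6.21) in angiogenic islets and between 6.23 and 6.59 (median 6.36) in non angiogenic islets. The groups overlapped, and the difference of -0.17 (SE 0.08) had an adjusted p of 0.312 in limma.

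Several complex IV subunits have a rarer isoform confined to certain tissues and a common partner, and none of the 8 pairs showed a called switch: 0 of their genes passed in limma. Cox4i2, the oxygen-responsive isoform of lung, differed by 0.03 and its partner Cox4i1 by -0.08. The muscle isoforms Cox6a2 and Cox7a1 differed by -0.10 and 0.03, and their partners Cox6a1 and Cox7a2 by 0.06 and -0.05. The testis isoforms Cox6b2, Cox7b2 and Cox8c differed by -0.04, -0.06 and -0.08, and the common forms Cox6b1, Cox7b and Cox8a by 0.04, -0.05 and -0.02. Cox7b2 was the 1 gene of the 89 in the dimmest 25% of all genes, so little signal stood behind its value. The rarer isoforms Cox8b, Cox8c, Cox6b2 and Cox7a1 were also dim, with means below the array medians in both groups. Of 9 skeletal muscle markers 0 passed in limma (0 at an unadjusted p under 0.05), and their mean lay between 6.70 and 6.82 in angiogenic and between 6.65 and 6.82 in non angiogenic islets.

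Complex V had 11 positive and 6 negative differences. The genes of the catalytic F1 head were all on the positive side: 0.13 for the alpha subunit Atp5a1, 0.10 for the beta subunit Atp5b, 0.13 for the gamma subunit Atp5c1, 0.18 for the delta subunit Atp5d and 0.04 for the epsilon subunit Atp5e. In replicates 4 to 6 alone they were 0.04, -0.03, 0.06, -0.02 and 0.06, against 0.22, 0.23, 0.21, 0.38 and 0.01 in replicates 1 to 3. The positive sign thus rested mainly on replicates 1 to 3. None of the 5 passed the test in limma.

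Genes of the membrane part stood on both sides. The small subunit genes Atp5k (subunit e), Atp5l (subunit g), Atp5md and Atp5mpl differed by -0.11, -0.11, -0.17 and -0.09, and Atp5j2 (subunit f) by 0.00. Atp5g1, Atp5g2 and Atp5g3, which encode the same c subunit of the rotor, differed by 0.11, 0.05 and 0.07. For Atp5k, Atp5l, Atp5md and Atp5mpl the values in replicates 4 to 6 were 0.11, 0.06, -0.13 and 0.11, against -0.32, -0.27, -0.22 and -0.30 in replicates 1 to 3. The sign differed between the sets for 3 of the 4. These genes, like those of the F1 head, were grouped by role after the values had been seen.

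Atp5pb, subunit b of the peripheral stalk, lay between 10.48 and 10.73 (median 10.58) in angiogenic islets and between 10.17 and 10.61 (median 10.44) in non angiogenic islets. The groups overlapped, and the difference was 0.16 (SE 0.07, limma adjusted p = 0.266). A dimmer cluster of Atp5pb gave 0.09, with a limma adjusted p of 0.573 over all clusters. In the order of cluster numbers the brighter one falls among genes of chromosome 11, while Atp5pb lies on chromosome 3. Of the 17 genes among the 89 with several transcript clusters, the differences of the clusters of a gene lay within 0.12 of each other on the log2 scale, the widest being the 6 clusters of Atp5l.

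For a group effect that differed between sets, 10 of the 89 genes had an unadjusted limma p under 0.05. This was a larger share than over all genes, where 1278 of 19938 did (6.41%). After adjustment 0 of the 89 passed (0.00502% of all genes did). Atp5d had the lowest unadjusted p in limma, 0.00568. Of the 89 genes, 31 had a positive and 27 a negative difference in both sets. Without angiogenic replicate 2, Atp5mpl passed this test: its group difference was higher by 0.66 on the log2 scale in replicates 4 to 6 than in replicates 1 to 3 (limma adjusted p = 0.0305).

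Differences between the sets of arrays were mostly larger than those between angiogenic and non angiogenic islets, in the 89 genes as over all genes. Since the split was seen in these arrays, its values are given as a description. In limma with group in the model, 34 of the 89 were higher and 10 lower in replicates 4 to 6 than in replicates 1 to 3, where 18.0% of all genes were higher and 18.8% lower. For 63 of the 89 the set difference was larger in size than the group difference, as it was for 13617 of all 19938 genes.

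Ndufaf1 had a mean of 8.78 in replicates 4 to 6 and 7.84 in replicates 1 to 3, a difference of 0.94. Ndufb6 differed by 0.93, Atp5md by 0.86, Ndufs4, an accessory subunit of complex I, by 0.61, Ndufa4 by 0.55 and Atp5e by 0.51. In the other direction Atp5k differed by -0.67 and Cox6a2 by -0.47. Complex I had 15 genes higher and 2 lower and complex V 8 higher and 4 lower, while complex IV had 2 in each direction and 13 in neither.

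**Figure D4:**
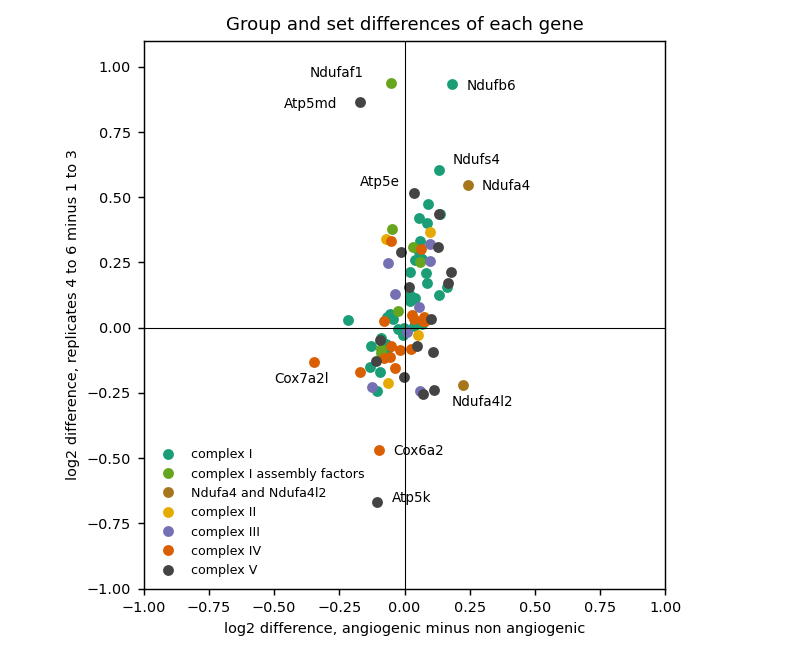
Log2 difference between replicates 4 to 6 and replicates 1 to 3 (vertical axis) against the log2 difference between angiogenic and non angiogenic islets (horizontal axis, same scale) for each of the 89 genes, coloured by complex. The cloud is taller than it is wide, with Ndufaf1 at 0.94 and Atp5k at -0.67 on the vertical axis, and 63 of the 89 lie farther from 0 on it than on the horizontal axis. The same holds for 13617 of all 19938 genes, which are not drawn.

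Acinar markers, the digestive enzyme genes of the exocrine pancreas, varied most from array to array. Their mean lay between 7.59 and 10.42 in angiogenic islets and between 7.48 and 11.34 in non angiogenic islets, with 0 of 9 called between groups in limma (0 of 9 at an unadjusted p under 0.05). In a model with group and set, 73 of the 89 genes had a negative slope on this mean (82.0%, against 59.3% of all genes), with a median slope of -0.05 per log2 unit of acinar signal against -0.01. None of the 89 slopes was called in limma, where 0.135% of all genes were. Angiogenic replicate 2 and non angiogenic replicate 3 were the arrays lowest in acinar markers.

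Around the chain, 211 further genes in 9 mitochondrial lists held 1 called gene: 0 rose and 1 fell in limma, where 3.55% of all genes rose and 0.948% fell. Medians lay near 0 in each list: -0.03 for 9 electron carriers outside the complexes, -0.04 for 11 coenzyme Q synthesis genes, -0.01 for 36 further assembly factors, 0.04 for 8 genes of ATP synthase regulation and ATP export and 0.00 for 19 citric acid cycle genes. They were -0.03 for 19 biogenesis genes, 0.00 for 77 mitochondrial ribosome genes, -0.01 for 24 import genes and -0.04 for 9 hypoxia-linked mitochondrial genes. The list of 8 genes also held Atp5md, which is among the 89 and not among the 211.

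Bnip3, a hypoxia-induced receptor for the removal of mitochondria by autophagy, was the gene that fell. It measured 9.38, 9.49, 9.41, 9.38, 9.35 and 9.13 in angiogenic islets of replicates 1 to 6, against 9.70, 9.99, 9.79, 9.68, 9.55 and 9.58 in non angiogenic islets. The groups did not overlap, and the log2 difference was -0.36 (SE 0.08, adjusted p = 0.0131). A dimmer cluster of the gene gave -0.17 with an adjusted p of 0.483 over all clusters, and the mean of both clusters gave an adjusted p of 0.0610. In the order of cluster numbers the dimmer cluster falls among genes of chromosome 7, where Bnip3 lies. The brighter cluster, on which the call rests, does not, and which copy it measures was not settled. In replicates 4 to 6 alone the adjusted p was 0.0649.

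Citrate synthase (Cs), the entry enzyme of the citric acid cycle, lay between 10.60 and 10.83 (median 10.76) in angiogenic islets and between 10.18 and 10.70 (median 10.46) in non angiogenic islets. The difference was 0.28 (SE 0.09), with an adjusted p of 0.0985 in limma and 0.00186 with the set as a block. Replicates 4 to 6 gave 0.17 and replicates 1 to 3 gave 0.40. Sqor, which feeds electrons of hydrogen sulfide to coenzyme Q, differed by -0.19 (SE 0.05), with an adjusted p of 0.0653, or 0.0159 with the set as a block.

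In the remaining lists the gene with the largest difference did not pass in limma without a block. Polg2, the accessory subunit of the mitochondrial DNA polymerase, differed by -0.28 (adjusted p = 0.146), Coq10b, a coenzyme Q binding protein, by -0.22 (0.337), and Cox17, the copper chaperone of complex IV, by -0.17 (0.654). Mrpl23, a protein of the mitochondrial ribosome, differed by 0.29 (SE 0.29), Tomm22, a receptor of the outer membrane translocase, by 0.19 (SE 0.19), and Vdac2, a channel of the outer membrane, by 0.18 (SE 0.11). With the set as a block Tomm22 passed (adjusted p = 0.0372). For Mrpl23, replicates 4 to 6 gave -0.01, while replicates 1 to 3 gave 0.60 with an adjusted p of 0.0219 within that set in limma.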

How the data were processed

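Total RNA from islet pools was labelled with biotin and hybridized to Affymetrix arrays. The submitters' processing notes name Affymetrix Expression Console and RMA, with no version given. The authors deposited 1 table of log2 values for 35556 transcript clusters in 12 arrays. Of these, 21789 had 1 gene symbol, 1621 several and 12146 none. The brightest cluster by its mean over all arrays stood for a gene, which left 19938 genes, 999 of them with several clusters. The 89 members had 114 clusters, and 3 further clusters with several symbols were left out. Groups were compared with limma 3.58.1 in R 4.3.3 (two-sided, Benjamini-Hochberg adjustment over all genes, threshold 0.05). The methods behind the fits were tested on simulated data. Members and lists were chosen with earlier results of these data known, as was the split into sets of 3 arrays per group. Named genes were any member past the threshold, the 3 largest differences in each direction per complex, both members of 8 isoform pairs and the top genes of each further list. Alternatives changed the test, array weights, centring, normalization, dim-gene filter, choice of cluster, block, covariate and arrays. The number of arrays limits the precision.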

Additional observations from a re-analysis of the deposited data

Results flagged for a closer look

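In 5 of 126 groups of 6 arrays (3.97%), 1 array stood far from the others by Dixon's criterion, which chance meets in about 1 of 20 groups. Angiogenic replicate 2 stood high for Ndufa7, an accessory subunit of complex I, at 9.81 where the next array was at 9.50. The same array stood high for Sdhc, a membrane anchor of complex II, at 10.44 with the next at 10.20. Non angiogenic replicate 3 stood high for the complex IV genes Cox6b1, at 11.40 with the next at 11.17, and Cox8a, at 11.72 with the next at 11.51. Non angiogenic replicate 2 stood low for the mean level of Ndufa4 and Ndufa4l2, at 7.89 with the next at 8.08. The acinar mean was 7.59 in angiogenic replicate 2 and 7.48 in non angiogenic replicate 3, the 2 lowest of the 12 arrays. Its part in these values was not tested.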

How the results depend on the processing

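No direction of a called result reversed under the alternatives run, and the median over the 89 genes stayed between -0.01 and 0.05 when each array was left out in turn. Under the methods' t-test without adjustment, 1529 genes were higher and 1385 lower, 1 and 2 among the 89, and 4 and 13 among the other mitochondrial genes. Array weights and median centring each gave 1 lower gene of the 89 and 2 lower other mitochondrial genes. Quantile normalization gave 1 higher and 2 lower other mitochondrial genes, and the mean of all clusters 0 lower. The set as a block gave 1172 higher and 547 lower genes, 1 lower among the 89, and 2 higher and 2 lower others. With set and acinar mean together, an alternative chosen after seeing the data, 1229 were higher and 545 lower, 1 and 1 among the 89, 1 higher isoform gene, and 3 and 2 others. The acinar covariate alone gave 749 higher and 222 lower genes. Of the 89 it gave 1 higher (Ndufa4l2, also the isoform gene) and 1 lower (Cox7a2l). Replicates 1 to 3 alone gave 66 lower genes and 2 higher others. Replicates 4 to 6 alone gave 1 higher of the 89, Ndufa4l2, which is the 1 higher isoform gene, 0 lower others and a complex IV median of 0.025. The effect differing between sets was called for 0 genes with array weights, the mean of clusters, all clusters or the acinar covariate. The cause of these changes was not tested.

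Leaving out 1 array gave 553 to 715 higher genes, the fewest without angiogenic replicate 4, and 110 to 178 lower genes, the fewest without angiogenic replicate 6. It gave 0 to 1 lower of the 89 (Cox7a2l, without angiogenic replicate 2 or non angiogenic replicate 5), 0 to 1 higher others (without non angiogenic replicate 3 or 6), and for the difference between sets 0 to 9 genes and 0 to 1 of the 89, the most without angiogenic replicate 2. Cox7a2l passed in 8 of 25 alternatives (adjusted p 0.0161 to 0.272 in limma), Ndufa4l2 in 3 (0.0203 to 0.897) and Bnip3 in 23 (0.000888 to 0.0649).

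The same replicate number gave correlations of 0.0276 to 0.538 between deviations of the groups, and only replicates 1 and 4 correlated best with their own number. These deviations still held the difference between the sets, so whether the numbers pair the samples cannot be told from them. With the replicate block, 449 genes were lower, 1 of the 89 was lower, and 2 others were higher (Cs and Idh3a) and 4 lower (Bnip3, Sqor, Cox17 with an adjusted p of 0.0422 and Polg2 with 0.0483, in limma).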
